A study of Mus musculus with 3 samples.

Results

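Vascular smooth muscle cells form the muscular coat of arteries, arterioles and veins, and 52 barcodes of mouse pancreas met a rule for them, of 36630 barcodes kept and 41134 deposited. A kept barcode had at least 500 unique molecular identifiers (UMIs, counted RNA molecules), at least 200 genes and at most 20% of its UMIs from mitochondrial genes. A member had at least 6 UMIs in all from at least 2 of the genes Acta2, Myh11, Tagln and Des, with at least 4 from Acta2 and Myh11, at most 1 from the endothelial genes Pecam1 and Cdh5, and at most 2 from the fibroblast genes Dcn and Clec3b. The levels of those 8 genes chose the cells, so they are given as a description and carry no comparison with other cells.

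Single cells were taken from whole pancreas in 3 libraries, 1 for each group, by 10x Chromium 3-prime chemistry (version 3). Sedentary animals gave the libraries labelled none and diabetic, and exercised animals gave the library labelled diabetic-Exercise. The animals named in the series are males of the db/db strain, in which a broken leptin receptor leads to obesity and diabetes, put on a treadmill when 6 weeks old. For the library none the sources used here give neither genotype nor age, and they give no length of training and no number of mice. With 1 library per group no difference between groups has a replicate check, so no test is given, cells are not treated as replicates, and every interval is a 95% interval for counting error alone.

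Contraction of these cells sets the diameter of a vessel and so the flow to the tissue behind it. Calcium entering the cell activates myosin light chain kinase, and the phosphorylated myosin then pulls on actin filaments, while nitric oxide from the endothelium relaxes the cell through cyclic GMP. Serum response factor and its partner myocardin switch on most contractile genes by binding CArG boxes near their start sites, and Notch3 signalling keeps the cells mature. Pericytes, the mural cells of capillaries, share several of these genes and grade into smooth muscle along small arterioles.

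CArG boxes were looked for in the 250 bases before each RefSeq start site (GRCm38.p6) of the 4 rule genes and a list of 24 further contractile genes. The rule genes chose the cells, and the others belong to the contractile apparatus. Of those 28 genes, 25 were matched, and Tagln, Myh11 and Actg2 were not among them. The box was found by its letters alone, CC, then a core of only A and T, then GG. Because this consensus is its own reverse complement 1 scan covers both strands. A CArG-like box differs from it by a single C or G within its A/T core. The stretches that hold a box follow, 30 bases each, 5′ to 3′ on the gene's strand, with the box in capitals and its first base counted backwards from the start site.
Acta2, CArG-like box 84 bases before the start, chr19:34255438-34255467, minus strand: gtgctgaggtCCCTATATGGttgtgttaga
Acta2, CArG-like box 34 bases before the start, chr19:34255388-34255417, minus strand: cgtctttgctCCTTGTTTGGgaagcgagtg
Myl9, CArG box 161 bases before the start, chr2:156775293-156775322, plus strand: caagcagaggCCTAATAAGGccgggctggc
Myl9, CArG-like box 99 bases before the start, chr2:156775355-156775384, plus strand: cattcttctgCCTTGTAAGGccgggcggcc
Myl6, CArG box 50 bases before the start of its second promoter entry, chr10:128493040-128493069, minus strand: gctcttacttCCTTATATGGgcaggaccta
Vcl, CArG box 227 bases before the start, chr14:20929161-20929190, plus strand: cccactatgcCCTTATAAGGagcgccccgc
Synm, CArG-like box 239 bases before the start, chr7:67759962-67759991, minus strand: caacggggagCCTCATAAGGtgtcccagat
Pdlim3, CArG-like box 100 bases before the start, chr8:45885377-45885406, plus strand: tctctcacttCCAAAGTTGGagctctcctt

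An exact CArG box was found in 3 of the 25 genes and an exact or CArG-like box in 6. By promoter, 3 of 30 (10%) held an exact box and 6 of 30 (20%) an exact or CArG-like one, beside 1.47% and 8.60% of all 32817 promoters of the same length. In the GENCODE M21 annotation of GRCm38 both Acta2 boxes lie in the 5-prime UTR of a protein-coding transcript that starts further upstream, the Myl6 box lies in an exon of a transcript of that gene annotated as retained intron, and the other boxes lie outside the annotated bodies of these genes. These are matches of letters and show no binding, and a gene without a match has only no such letters in this window.

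Smooth muscle cells were rare in every library. The library none held 3 of 9169 kept barcodes (0.0327%, exact binomial interval 0.00675 to 0.0956%). The diabetic library held 24 of 11599 (0.207%, 0.133 to 0.308%), and the diabetic-Exercise library held 25 of 15862 (0.158%, 0.102 to 0.233%). The share was 6.32 times as high in diabetic as in none (exact conditional interval 1.92 to 32.8) and 0.762 times as high in diabetic-Exercise as in diabetic (0.417 to 1.39). The 2 ratios share the diabetic library.

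The direction of the second ratio depended on what was counted as the whole. Most kept barcodes carried over 50% of their UMIs from acinar genes, the digestive enzymes of the exocrine pancreas. Without those barcodes the shares were 1 of 975 (0.103%) in none, 20 of 2143 (0.933%) in diabetic and 24 of 1738 (1.38%) in diabetic-Exercise, and the ratio of diabetic-Exercise to diabetic became 1.48 (0.783 to 2.82). When every barcode was thinned to 1000 UMIs and the rule lowered to 2 UMIs from 2 of the genes, at least 1 of them from Acta2 or Myh11, the shares were 0.0331%, 0.247% and 0.241%, a ratio of 0.974 (0.578 to 1.66). The interval of the diabetic-Exercise to diabetic ratio held 1 under each of these denominators, so a difference in share between those libraries was not detectable at this depth.

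At the edge of the rule, 5 members had a sum of 6 to 9 UMIs and 6 barcodes just outside it had a sum of 4 or 5. Of 70 barcodes that met the thresholds on the 4 smooth muscle genes, 3 were left out by the endothelial genes and 15 by the fibroblast genes. Barcodes shared between pairs of libraries numbered 32 to 61, no barcode was a member in both of a pair, and 1 diabetic member's barcode also occurred in none. The automatic threshold of a doublet caller marked 0 barcodes in each library, and no member was among the top 5% by doublet score.

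The members held 11747 UMIs in none, 89441 in diabetic and 115858 in diabetic-Exercise. Their median depth was 3794, 3412.5 and 4251 UMIs and their median number of genes was 899, 1408 and 1565. Over all kept barcodes the median depth was 4164, 5108 and 1989 UMIs. Acinar RNA took a median of 53.0% of a member's UMIs in none, 25.9% in diabetic and 20.4% in diabetic-Exercise, beside 77.8%, 79.9% and 72.1% over all kept barcodes. Mitochondrial genes took a median of 1.52%, 3.34% and 6.62%, beside 0.654%, 2.0% and 6.67% over all kept barcodes. Each result below stands beside these gradients, and their part in it was not tested except where a value without acinar RNA is given.

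The label smooth muscle was checked against genes the rule did not use. Besides the rule genes, those with the largest ratio of members to all other kept barcodes were Myl9 (a 227-fold ratio), the regulatory light chain of myosin, Tpm2 (155-fold), a tropomyosin of the actin filament, Mylk (96.0-fold), the kinase that starts contraction, and Mustn1 (92.1-fold), a small nuclear protein of muscle and bone. Lmod1, which builds smooth muscle actin filaments, Notch3, Ppp1r14a, an inhibitor of myosin phosphatase, and Pln, which restrains the calcium pump, were also among the leading 25. So were the pericyte markers Rgs5 (62.1-fold) and Ndufa4l2 (29.1-fold), and Rgs5 ranked above Lmod1 (46.8-fold). The leading genes thus held markers of both kinds of mural cell. These ratios describe cells chosen on genes that go with them and are no test.

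Markers of other cells were checked as whole lists. Macrophage, T cell and B cell markers held at most 3 UMIs a list in any library. Islet markers held 0, 6 and 19 UMIs in none, diabetic and diabetic-Exercise, mesothelial markers 0, 3 and 0, and Schwann and nerve markers 0, 2 and 0. Ductal markers held 2, 104 and 44. Of these, 1 diabetic member held 88 and 1 diabetic-Exercise member 27. That diabetic member had 0 UMIs of the smooth muscle markers outside the rule, so those markers do not bear out its label. Ptprc, the common leukocyte gene, was at 0 in all 3 libraries, and so were Cd3e of T cells, Msln of mesothelium and Sox10 of Schwann cells. The 12 endothelial markers summed to 25 UMIs in diabetic and 23 in diabetic-Exercise, of which Esam had 21 and 18, and the 10 fibroblast markers to 34 and 63, of which Col1a2 had 23 and 32. The rule itself capped Pecam1, Cdh5, Dcn and Clec3b, which are on these lists, so their low sums are no check. The word vascular in the label was not settled by these markers: genes also known from visceral smooth muscle summed to 0 UMIs in the 3 cells of none, 58 in diabetic (4 of 9 genes seen) and 123 in diabetic-Exercise (6 of 9). Actg2, Hand2, Nkx2-3 and Synm were seen in both of those libraries and Foxf1 and Barx1 in diabetic-Exercise, while Chrm2, Chrm3 and Pcp4 were at 0 in every library. Of the 4 measured, 3 were higher in diabetic-Exercise than in diabetic, 2 of them past 2-fold, with a summed ratio of 1.41 (1.03 to 1.96, library levels scaled by trimmed-mean factors).

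Pericyte markers were present and form the clearest overlap with another class. The list of 10 summed to 1277 UMIs per 1000000 in none, 5758 in diabetic and 2305 in diabetic-Exercise in smooth muscle members, without further scaling. In 149 barcodes chosen as pericytes by Rgs5, Kcnj8, Abcc9, Vtn and Higd1b the same list summed to 5110, 8022 and 6698. The 12 smooth muscle markers outside the rule ran the other way, at 1277, 5736 and 6223 in members and 314, 653 and 558 in pericyte barcodes. Members and pericyte barcodes stood far apart on the smooth muscle list, but the choice of cells favours that gap. Members were chosen on genes that go with this list, and the pericyte barcodes leave out all members. The genes that chose the pericyte barcodes are also on the pericyte list, so neither list is a test. On the pericyte list their pooled sums were nearest in the diabetic library. The median per cell there was still 2773 UMIs per 1000000 in members and 11060 in pericyte barcodes. Some members held more UMIs of the pericyte list than of the smooth muscle list, and others the reverse. The UMIs were 48 and 6 in a diabetic member, 40 and 5 in another, and 24 and 4 in a diabetic-Exercise member. Apart from being members, these met the thresholds for pericyte barcodes, so their label is uncertain.

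**Figure D1:**
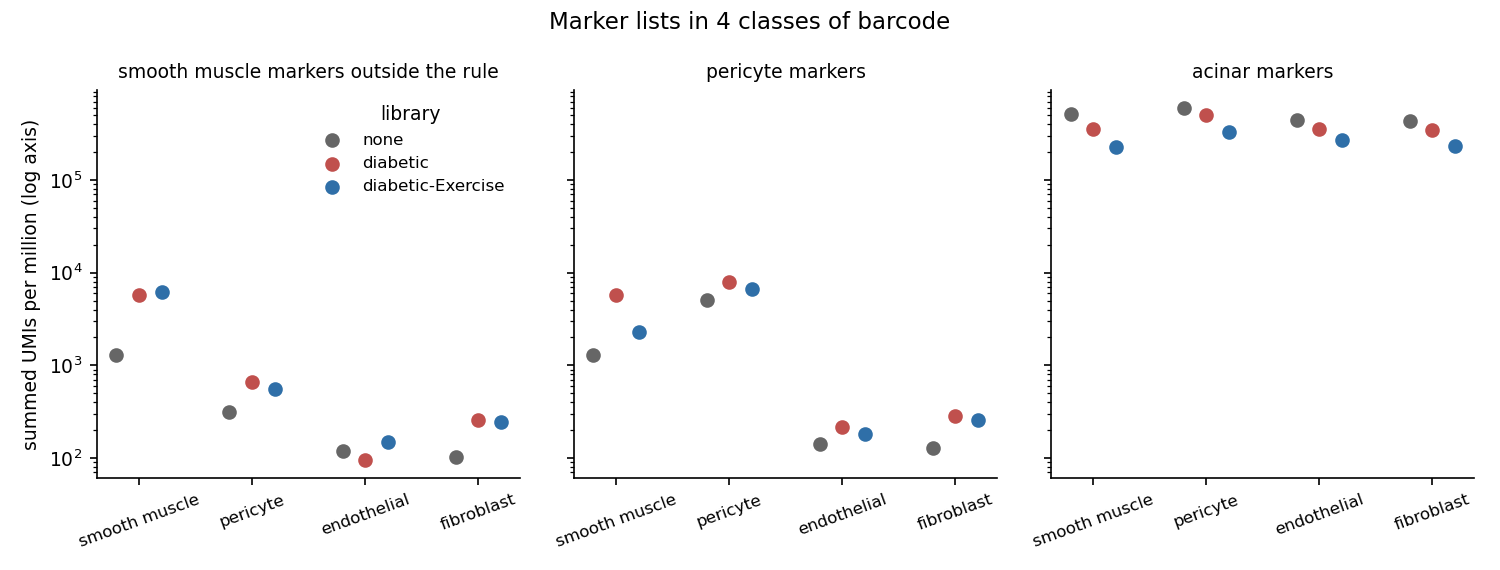
Summed UMIs per 1000000 (log axis) of 3 marker lists in smooth muscle, pericyte, endothelial and fibroblast barcodes, 1 point for each library. Smooth muscle markers were highest in the smooth muscle barcodes of each library, pericyte markers reached 5758 UMIs per 1000000 in the diabetic smooth muscle barcodes, and acinar RNA was present in every class.

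The counts of the rule genes chose the cells in each library, so their ratios between libraries are a description and no test. Among them, Acta2 and Tagln had ratios of diabetic-Exercise to diabetic with intervals above 1, while those of Myh11 and Des held 1. From here a level is the UMIs summed over the members of a library, scaled by trimmed-mean (TMM) factors to UMIs per 1000000, and is called CPM, while a value per cell is that cell's own UMIs per 1000000. Acta2, smooth muscle alpha-actin (chr19:34241090-34255590, minus strand), ranged per cell from 2109 over a median of 2217 to 9436 in none, from 0 over 7171 to 22395 in diabetic and from 626 over 8796 to 19803 in diabetic-Exercise. The ranges overlapped throughout, with the median lowest in none. Pooled, Acta2 stood at 5368 CPM (interval 4066 to 6955), 7143 (6593 to 7726) and 9030 (8523 to 9559), which put diabetic-Exercise at 1.26 times diabetic (1.15 to 1.40). With members thinned to 1000 UMIs the log2 of that ratio fell from 0.34 to 0.086.

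Tagln, the actin-binding protein transgelin, had a median per cell of 3954 in none, 3032 in diabetic and 6014 in diabetic-Exercise, with highest cells at 6905, 23766 and 21171. The diabetic median was the lowest although its highest cell exceeded that of the other libraries. The pooled ratio of Tagln, diabetic-Exercise to diabetic, was 1.57 (1.40 to 1.77). Its log2 fell from 0.65 to 0.35 without the members that held a UMI of the pericyte genes Kcnj8, Abcc9, Vtn or Higd1b. Myh11, the smooth muscle myosin heavy chain, had pooled levels of 848, 3926 and 3505 CPM and a ratio of 0.893 (0.775 to 1.03), and Des, the intermediate filament protein desmin, had 565, 950 and 1105 CPM and a ratio of 1.16 (0.882 to 1.54). All 4 rule genes were seen in 3 of 3 members in none, 18 of 24 in diabetic and 23 of 25 in diabetic-Exercise.

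**Figure D2:**
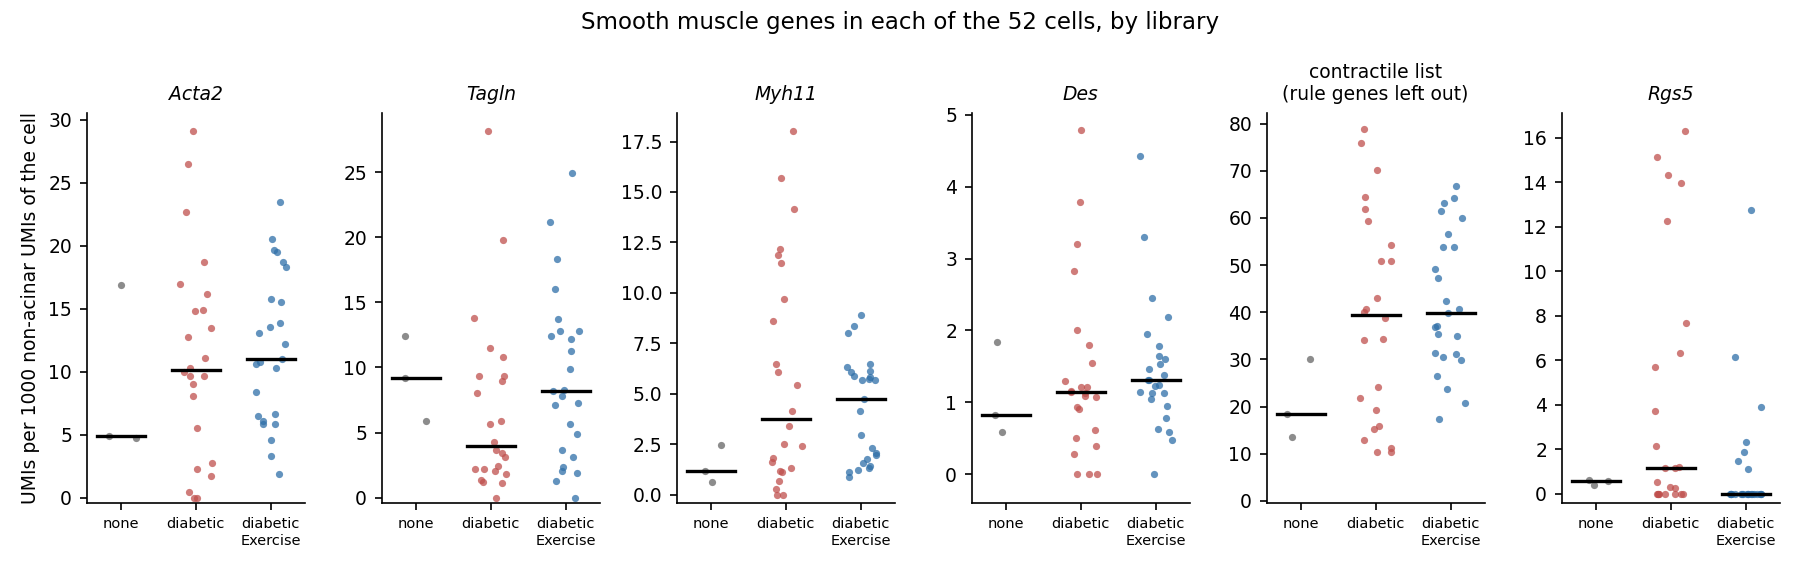
UMIs per 1000 non-acinar UMIs of each cell (vertical axes) for the 4 rule genes, the contractile list without them, and Rgs5, with 1 point for each of the 52 cells and a line at each library's median. The ranges of diabetic and diabetic-Exercise overlapped in every panel, and Rgs5 was at 0 in 18 of 25 diabetic-Exercise cells and 8 of 24 diabetic cells.

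The contractile apparatus beyond the rule genes was at nearly the same level in the exercised and the sedentary diabetic library. Of 24 genes on the list all 24 had the 20 UMIs over both libraries needed to be measured, 16 were higher and 8 lower in diabetic-Exercise, and 2 were past 2-fold, both higher. Over all 1283 genes measured in that comparison 627 were higher and 656 lower. Of these, 91 (7.09%) were at least 2-fold higher and 118 (9.2%) at least 2-fold lower. The list's median log2 ratio was 0.20 and its summed ratio 1.14 (1.09 to 1.20), beside a median of -0.00 over all genes measured. Per cell the list took a median of 39.4 UMIs per 1000 non-acinar UMIs in diabetic (10.3 to 78.8) and 39.8 in diabetic-Exercise (17.4 to 66.8), and 18.4 in none (13.6 to 30.1). The median of the list's log2 ratios became -0.061 when members with a UMI of the pericyte genes Kcnj8, Abcc9, Vtn or Higd1b were left out.

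The 2 genes past 2-fold were Smtn, smoothelin of contractile stress fibres, with 14 UMIs in diabetic and 47 in diabetic-Exercise (ratio 2.23, 1.21 to 4.40), and Synm, the intermediate filament protein synemin, with 10 and 35 UMIs (2.33, 1.13 to 5.28), which is also on the visceral list. Neither had a UMI in the 3 cells of none. Myl6, the essential light chain of myosin, was 1.66 times as high in diabetic-Exercise (1.47 to 1.89), with 30 UMIs in none, 349 in diabetic and 872 in diabetic-Exercise. Its partner Myl9 was not higher, at 4579 and 4229 CPM (ratio 0.924, 0.811 to 1.05), and the light chain kinase Mylk stood at 1500 and 1707 CPM (1.14, 0.914 to 1.42).

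Filamin A (Flna), which crosslinks actin, was 1.29 times as high in diabetic-Exercise (1.07 to 1.56), and Ppp1r14a was 1.57 times as high (1.03 to 2.44). Mustn1 was the member of the list that went the other way with an interval clear of 1. It had 169 UMIs in 17 of 24 diabetic cells and 133 in 21 of 25 diabetic-Exercise cells, a ratio of 0.524 (0.414 to 0.661). Its highest diabetic cell was at 5039 UMIs per 1000000 and its highest diabetic-Exercise cell at 2257. The tropomyosins Tpm1 (0.969, 0.821 to 1.14) and Tpm2 (1.16, 0.982 to 1.37) and vinculin, Vcl (1.30, 0.75 to 2.32), a link from actin to the cell surface, had intervals that held 1.

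Pooled over the members, pericyte markers were lower in diabetic-Exercise than in diabetic, and a few cells carried most of them. Of the list of 10, 7 were measured, all 7 were lower and 4 were past 2-fold, with a median log2 ratio of -1.09 and a summed ratio of 0.345 (0.297 to 0.401). Rgs5, a brake on G protein signalling that is abundant in pericytes (chr1:169655501-169695813, plus strand), held 3 UMIs in the 3 cells of none, 322 in 16 of 24 diabetic cells and 108 in 7 of 25 diabetic-Exercise cells. Per cell it ranged from 230 over 264 to 277 UMIs per 1000000 in none, from 0 over 633 to 12154 in diabetic and from 0 over 0 to 11119 in diabetic-Exercise, so the diabetic and diabetic-Exercise ranges overlapped while their medians differed. Its pooled ratio was 0.223 (0.178 to 0.278). The 9 diabetic cells with 10 or more UMIs held 312 of the 322. The 3 such cells of diabetic-Exercise held 95 of the 108, so most of the pooled Rgs5 UMIs lay in these few cells. A single cell held 60.2% of the diabetic-Exercise UMIs, and thinned to 1000 UMIs per cell Rgs5 was seen in 12 diabetic and 5 diabetic-Exercise cells. Over all other kept barcodes it stood at 23.2 and 18.3 UMIs per 1000000 in those libraries. Pericyte barcodes, which leave out the members, numbered 94 of 11599 kept barcodes in diabetic and 23 of 15862 in diabetic-Exercise. Any link between those numbers and the members' values was not tested.

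Ndufa4l2, a mitochondrial protein of low-oxygen cells, was 0.345 times as high (0.211 to 0.555), Cox4i2, a cytochrome oxidase subunit, 0.387 times (0.204 to 0.713) and Pdgfrb, the receptor for platelet-derived growth factor B, 0.461 times (0.238 to 0.874). Higd1b (0.561, 0.270 to 1.15), Mcam (0.687, 0.409 to 1.15) and Cspg4 (0.971, 0.561 to 1.71) had intervals that held 1. Kcnj8, a potassium channel subunit that defines many pericytes, was nearly lacking, with 1, 0 and 3 UMIs in the 3 libraries. A UMI of Kcnj8, Abcc9, Vtn or Higd1b was present in 3 of 3, 11 of 24 and 10 of 25 members. Without those members the log2 ratio of Rgs5 was -3.07 and the median of the pericyte list -0.77, both below 0. These values rest on 13 diabetic and 15 diabetic-Exercise cells with few Rgs5 UMIs. The diabetic member with 88 ductal UMIs was among them and held 11 UMIs of Rgs5, and values without it were not computed. Other alternatives gave Rgs5 log2 ratios up to -1.71.

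Cells with Rgs5 had less contractile RNA than cells without it. The 26 cells with an Rgs5 UMI had a median of 25.3 contractile UMIs per 1000 non-acinar UMIs, and the 26 without had 50.9. The order was the same in diabetic (29.2 in 16 cells, 55.2 in 8) and in diabetic-Exercise (26.5 in 7 cells, 48.2 in 18). Median depth was 3713 UMIs in cells with Rgs5 and 2491 in cells without it in diabetic, and 3204 and 4440 in diabetic-Exercise. These splits were chosen after the values were seen and describe 52 cells of 3 libraries.

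**Figure D3:**
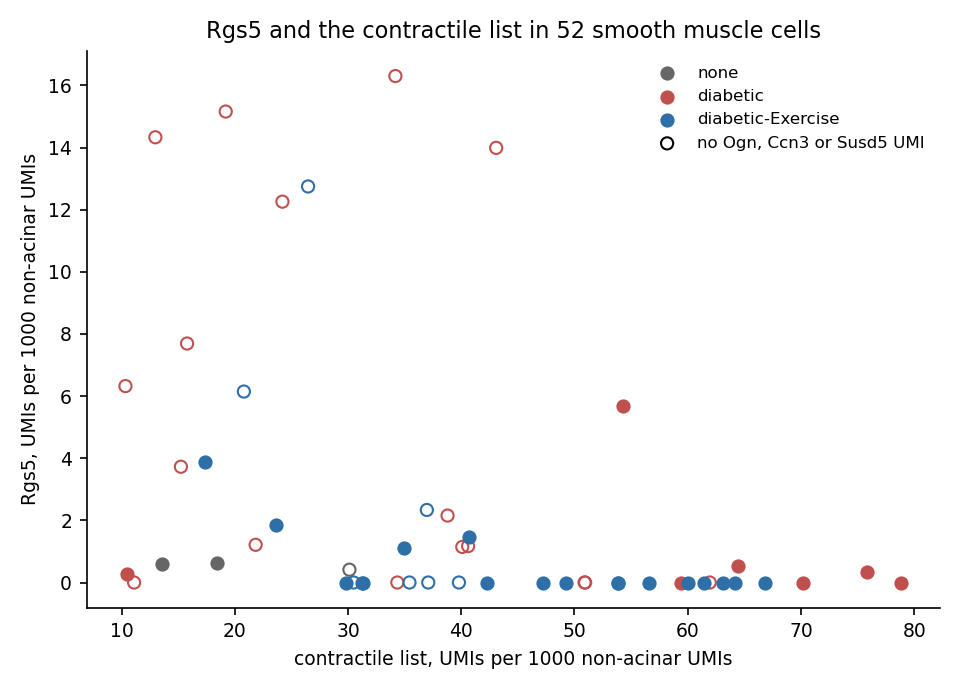
Rgs5 (vertical axis) against the contractile list (horizontal axis), both in UMIs per 1000 non-acinar UMIs, with 1 point for each of the 52 cells, coloured by library and filled where the cell held a UMI of Ogn, Ccn3 or Susd5. Of 27 filled cells 17 had no Rgs5, beside 26 of all 52 cells. Of the 27, 18 were diabetic-Exercise cells, and in that library 18 of all 25 cells had no Rgs5.

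The genes with the largest ratios of diabetic-Exercise to diabetic, Ogn, Ccn3 and Susd5, were carried by few UMIs. A rule took the 10 largest ratios on each side among genes with at least 30 UMIs in at least 8 cells of the higher library, with no cell above 30% of them and a level no lower than that of all other kept barcodes. Ogn, the small matrix proteoglycan osteoglycin (chr13:49608046-49624501, plus strand), had 3 UMIs in 2 of 3 cells in none, 2 in 2 of 24 cells in diabetic and 38 in 12 of 25 cells in diabetic-Exercise, a ratio of 12.6 to diabetic (3.27 to 108). Its pooled level was 283 CPM in none, 22.9 in diabetic and 290 in diabetic-Exercise, so the diabetic library was the low one of the 3. Ccn3, a secreted matricellular protein, had 0, 3 and 30 UMIs (6.66, 2.07 to 34.1), and Susd5, which binds hyaluronan, had 0, 5 and 40 UMIs in 14 diabetic-Exercise cells (5.33, 2.10 to 17.3).

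At least 1 UMI of these 3 genes was seen in 7 of 24 diabetic and 18 of 25 diabetic-Exercise members, and in 2 of 3 in none. Of the 18, 14 had no Rgs5, beside 18 of all 25 diabetic-Exercise members, and of the 7, 3 had none, beside 8 of all 24 diabetic members. The median depth of the 18 was 4974 UMIs, beside 4251 over all 25. Sorbs2, an adaptor between actin and adhesions, had the most UMIs of the group, 45 in 13 diabetic cells and 207 in 19 diabetic-Exercise cells (3.06, 2.21 to 4.33), with a median per cell of 302 and 1508 UMIs per 1000000. Thinned to equal depth it was seen in 8 and 15 cells. Over all other kept barcodes Sorbs2 stood at 42.2 UMIs per 1000000 in diabetic and 120.6 in diabetic-Exercise, and the part of that difference in the members' ratio was not tested. Cd200, a surface protein that restrains myeloid cells, was 3.42 times as high (1.5 to 9.12), Rgs7bp, which anchors G protein regulators, 2.71 times (1.52 to 5.13), the metalloprotease Adamts1 2.66 times (1.39 to 5.51) and the aminopeptidase gene 2010111I01Rik 3.52 times (1.55 to 9.35). Gm28438, an unprocessed pseudogene at 2.68 times (1.80 to 4.12), is uncertain because its reads may come from a near-identical copy, its log2 ratio turned to -0.28 after thinning, and over all other kept barcodes it stood at 219 and 654 UMIs per 1000000.

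On the lower side stood Rgs5, Ndufa4l2 and Cox4i2, given above, with Tmsb10, a thymosin that binds actin monomers, at 31 and 12 UMIs (0.258, 0.121 to 0.516), Cd63, a tetraspanin of endosomes, at 35 and 14 UMIs (0.266, 0.132 to 0.508), and Serping1, the complement C1 inhibitor, at 47 and 25 UMIs (0.354, 0.209 to 0.587). Gm10076, annotated as a long noncoding RNA, was at 0.371 (0.227 to 0.596). The stress genes Atf3 (0.289, 0.162 to 0.499) and Ier2 (0.396, 0.222 to 0.689) and Nrip2 (0.395, 0.212 to 0.719), listed with Notch signalling, made up the 10. Of the 20 named genes 15 stayed past 2-fold in the same direction under every alternative that gave them a value. The genes were chosen for extreme ratios in these same counts, so this is no independent check. Not every alternative gave each gene a value: Tmsb10 had 11 and Rgs5 had 13. Leaving out barcodes by doublet score removed no member, and a lower UMI minimum does not alter a single gene's ratio. Neither of these alternatives could therefore move a named gene.

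**Figure D4:**
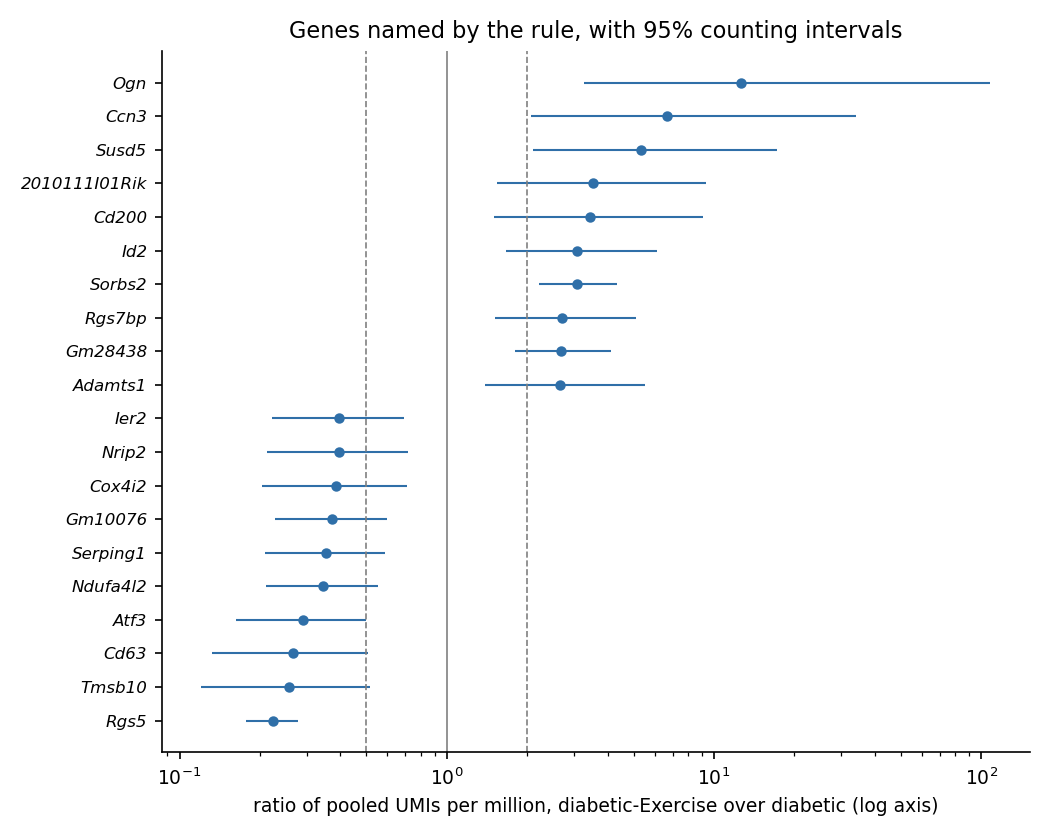
Ratio of pooled CPM, diabetic-Exercise over diabetic (log axis), of the 20 named genes, with points at the ratio and bars for the 95% counting interval. Dashed lines mark 2-fold and 0.5-fold. Ogn had the largest ratio, 12.6, with the widest bar, and Rgs5 the smallest, 0.223, with a narrow one.

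Genes of transforming growth factor beta (TGF-beta) and bone morphogenetic protein (BMP) signalling, which drive matrix production and contractile maturation, were mostly higher in diabetic-Exercise. Of 20 listed genes 9 were measured, 8 were higher and 3 were past 2-fold, with a median log2 ratio of 0.93 and a summed ratio of 1.74 (1.46 to 2.09). Under 11 alternatives the median lay between 0.75 and 1.08, and thinning gave no value. Id2, an inhibitor of helix-loop-helix factors induced by BMPs, had 13 UMIs in diabetic and 60 in diabetic-Exercise (3.07, 1.67 to 6.1), beside 28.9 and 62.8 UMIs per 1000000 over all other kept barcodes. The ligand Tgfb3 had 6 and 28 UMIs (3.11, 1.26 to 9.18), and the secreted target Ccn1 had 19 and 67 (2.35, 1.39 to 4.14).

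Ccn2, a secreted target of the pathway, was 1.91 times as high (1.26 to 2.98), and Ltbp1, which stores latent TGF-beta in the matrix, 2.0 times (1.07 to 3.96). The ligand Tgfb2 was the 1 measured gene that was lower, at 0.666, with 14 UMIs in each library.

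Matrix genes did not move together. Of 11 measured genes of the elastic and interstitial matrix 4 were higher and 7 lower (median -0.16). Eln, elastin, was 1.73 times as high in diabetic-Exercise (1.09 to 2.80) and the proteoglycan Bgn 1.79 times (1.23 to 2.66), with Bgn in 16 of 24 and 23 of 25 cells. Col1a1, the collagen I chain most abundant in fibroblasts, had 2 UMIs in 1 diabetic cell and 21 in 11 diabetic-Exercise cells (6.99, 1.71 to 61.5), and its partner chain Col1a2 was at 0.926. Of the fibroblast markers outside the rule and these 2 collagens, Lum and Dpt were seen in diabetic-Exercise with 2 and 3 UMIs and Pi16 and Mfap5 in diabetic with 1 and 3, with Pdgfra and Dpp4 at 0 in both, and the part of fibroblast RNA was not tested. Sparc, a matrix glycoprotein, was lower (0.623). Of 7 measured basement membrane genes 2 were higher and 5 lower (median -0.39), but without the members that held the pericyte genes the median was 0.58.

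The cells' adhesion and signalling genes gave mostly small differences, with single exceptions. Of 7 measured integrins and dystrophin-complex genes 5 were higher and 2 lower (median 0.10), the lower ones being Itga7 (0.261, 0.106 to 0.584), a laminin receptor of muscle, and Itga1 (0.568, 0.351 to 0.915), a collagen receptor. Among 6 measured vasoactive receptors 3 were higher and 3 lower. Ednrb, an endothelin receptor, had 22 UMIs in 8 diabetic cells and 5 in 2 diabetic-Exercise cells (0.151, 0.0448 to 0.409), while Ednra, the other endothelin receptor, had 8 and 16 (1.33, 0.538 to 3.59) and the neuropeptide Y receptor Npy1r 24 and 50 (1.39, 0.837 to 2.36).

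The list of the nitric oxide and cyclic GMP response leaned slightly lower in diabetic-Exercise. Of 7 measured genes 6 were lower (median -0.13, summed ratio 0.773, 0.614 to 0.973), beside 656 of 1283 over all genes measured. An interval below 1 was found for 1 of the 7. Gucy1a1, a subunit of the nitric oxide receptor, had 31 and 21 UMIs (0.451, 0.246 to 0.810), and its partner subunit Gucy1b1 had 22 and 19 (0.575, 0.294 to 1.11). Of 9 measured genes of calcium and potassium handling 5 were higher and 4 lower (median 0.15), and the calcium pump gene Atp2a2 (1.33, 0.886 to 2.03) and its inhibitor Pln (1.21, 0.741 to 2.01) both had intervals that held 1.

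Of 5 measured Notch genes 4 were lower (median -0.50). The receptor Notch3 held 68 UMIs in 19 diabetic cells and 72 in 22 diabetic-Exercise cells, a ratio of 0.705 (0.499 to 0.997). Of 4 measured transcription regulators 2 were higher and 2 lower. Myocardin (Myocd) was seen with 0, 5 and 7 UMIs and Srf with 0, 0 and 2, too few to be measured at this depth.

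Genes of the switch from a contractile to a synthetic state did not share a direction. Of 21 listed genes 7 were measured, 3 higher and 4 lower (median -0.22). Mgp, matrix Gla protein, an inhibitor of calcification, was 1.93 times as high in diabetic-Exercise (1.40 to 2.71), but a single cell held 72.3% of its UMIs there and 51.0% in diabetic. Csrp2, a muscle LIM protein, was 1.70 times as high (1.13 to 2.61). Spp1, osteopontin, was lower at 0.444 (0.230 to 0.836), and is also a ductal marker. Ductal markers summed to 1163 UMIs per 1000000 in diabetic members and 380 in diabetic-Exercise members, with 1 diabetic member at 24567.

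Immediate early genes, which answer acute stimuli and the handling of tissue, were lower in diabetic-Exercise for 12 of 16 measured genes, with 3 past 2-fold (median -0.28, summed ratio 0.754, 0.696 to 0.818). Jun had a median per cell of 791 in none, 696 in diabetic and 279 in diabetic-Exercise, and a ratio of 0.444 (0.313 to 0.626). Egr1 was at 0.634 (0.501 to 0.804) while Fos was at 0.916 (0.752 to 1.12). Heat shock genes had 7 higher and 4 lower of 11 (median 0.60), but the median turned to -0.29 without the members that held pericyte genes and to -0.0506 without the deepest member of each library.

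Genes of the mitochondrial genome were higher in diabetic-Exercise for 8 of 9 measured genes, 6 of them past 2-fold (median 1.27, summed ratio 2.17, 2.07 to 2.27). The mitochondrial share over all kept barcodes, 2.0% in diabetic and 6.67% in diabetic-Exercise, moved with it, and its part in these values was not tested. Of 23 measured nuclear genes of oxidative phosphorylation 14 were higher and 9 lower, and their median was 0.08. Of 9 genes of oxidative stress defence 5 were higher and 4 lower (median 0.11), and of 7 genes of insulin action and glucose use 2 were higher and 5 lower (median -0.16). Of 4 measured interferon genes 3 were lower, with Ifitm3 at 0.493 (0.319 to 0.756). Only 2 genes each of PDGF signalling, major histocompatibility complex class I, and the circadian clock were measured.

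**Figure D5:**
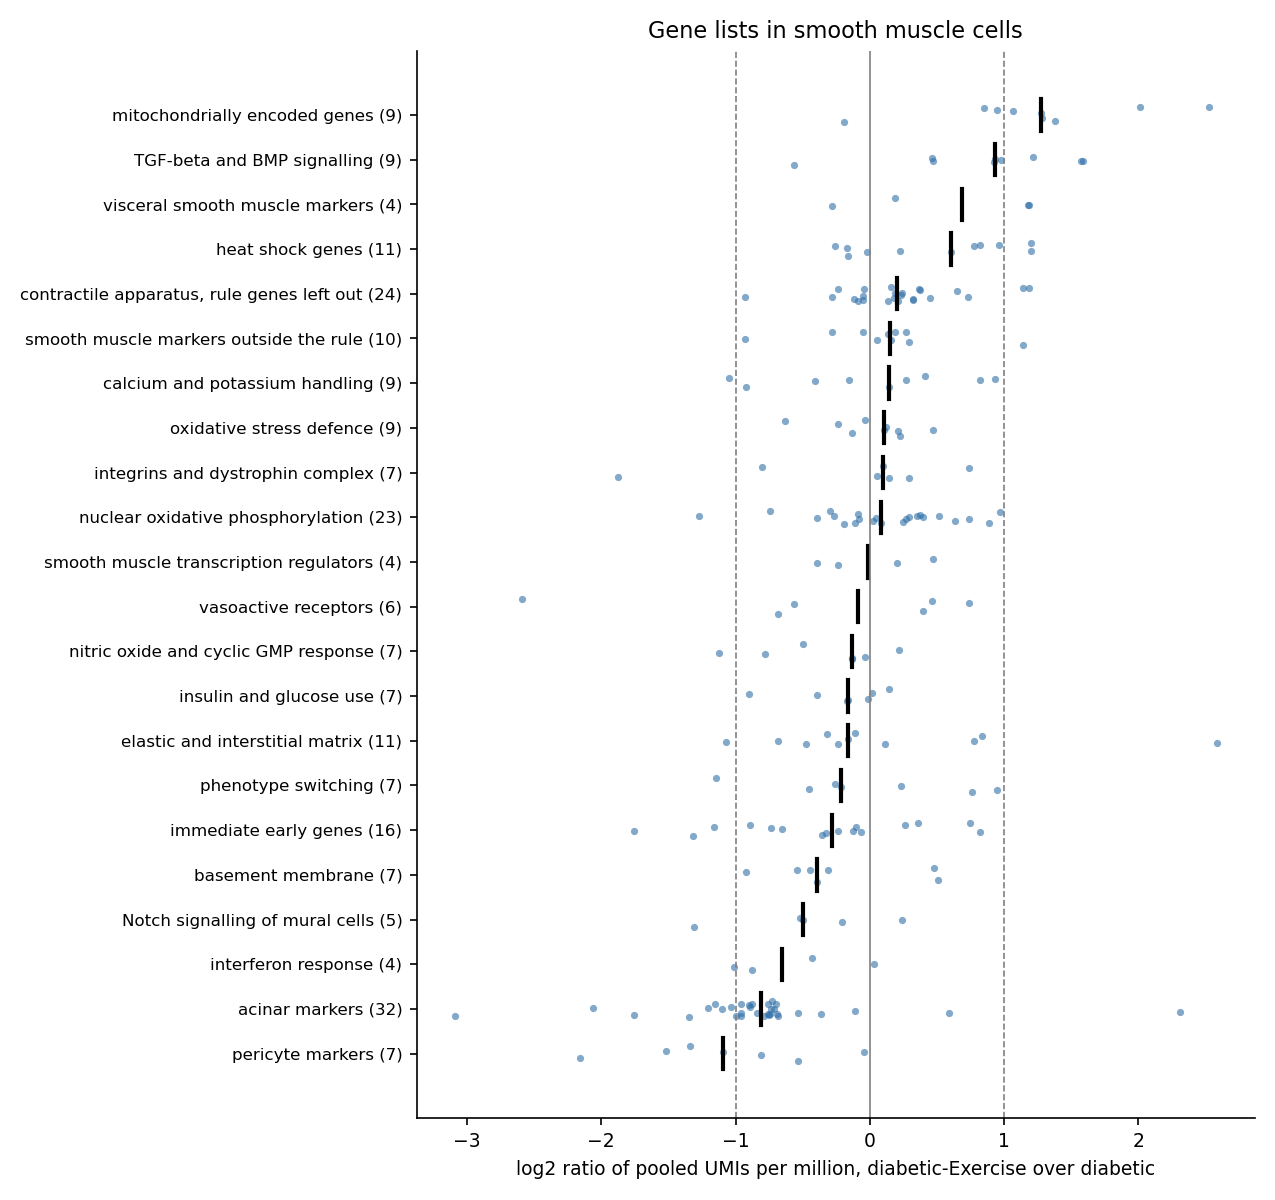
Log2 ratio, diabetic-Exercise over diabetic, of each measured gene (points) of the lists shown, each with at least 4 measured genes, whose number stands in brackets, with a bar at each list's median and dashed lines at 2-fold. Mitochondrially encoded genes (1.27) and TGF-beta and BMP genes (0.93) had the highest medians and pericyte markers (-1.09) the lowest.

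Fabp4, a fatty acid carrier of capillary endothelium and fat cells, was at 126 UMIs in 13 diabetic cells and 23 in 8 diabetic-Exercise cells (0.122, 0.0743 to 0.191). The other 5 fat cell markers, Adipoq among them, were at 0 in all 3 libraries. Of the 12 endothelial markers 4 were seen in each of the diabetic and diabetic-Exercise libraries, with Flt1, Plvap and Esam in both. Fabp4 was also seen in 58 of 94 diabetic pericyte barcodes. Diabetic members with 40 and 75 UMIs of Rgs5 held 39 and 32 UMIs of Fabp4, while a diabetic member with 30 held 0. The part of endothelial or pericyte RNA in the Fabp4 values was not tested. Acinar markers were lower for 30 of 32 measured genes (median -0.81), as was the acinar share of the members as a whole.

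Comparisons with none rest on 3 cells with 11747 UMIs, of which acinar RNA took a median of 53.0%. Of 518 genes measured 199 (38.4%) were at least 2-fold higher in diabetic and 46 (8.88%) at least 2-fold lower, so the background of genes past 2-fold was several times that of the comparison above and the median of all genes was 0.46. On the contractile list 19 of 24 genes were measured, 18 were higher in diabetic and 15 past 2-fold, with a median of 1.56, or 1.19 with genes at 0 in none set to their bound. Myh11 was 4.63 times as high in diabetic (2.41 to 10.2), Myl9 4.05 times (2.29 to 7.91) and Tpm2 5.59 times (2.36 to 17.4), while Tagln (0.919, 0.693 to 1.24) and Tpm1 (0.964, 0.662 to 1.45) had intervals that held 1. The log2 ratio of Tagln ran from -0.39 to 1.46 over 11 alternatives, and that of Acta2 moved from 0.41 to 1.81 without the deepest member of each library.

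Rgs5 was 13.0 times as high in diabetic as in none (4.42 to 63.6). The transcription factor Klf2 was the other way, with 25 UMIs in 3 cells of none and 41 in 12 diabetic cells (0.199, 0.118 to 0.342), but its cells in none ranged from 264 to 5293 UMIs per 1000000. All 10 genes named as higher had 0 UMIs in none, and Mfge8, a secreted glycoprotein of vessel walls, Eef2, a translation elongation factor, and Sorbs2 had 105, 92 and 45 in diabetic. Against a floor of 3 UMIs in the pooled cells of none they were at least 4.25-fold, 3.73-fold and 1.82-fold higher, and with the counting error of both libraries the lower limits of their ratios were 3.40, 2.97 and 1.42. For Cd9, Prkar1a and Atp1b2 the lower limits were 1.26, 1.19 and 1.06, and the intervals of Mcam, Aspn, Marveld1 and Sh3bgrl held 1. No gene could be named as lower, since that needed 8 cells in none.

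For diabetic-Exercise over none, 319 of 756 genes (42.2%) were at least 2-fold higher and 78 (10.3%) at least 2-fold lower, with a median of 0.72. On the contractile list 23 of 24 genes were higher and 22 past 2-fold (median 1.84, or 1.31 with genes at their bound). Rgs5 was 2.91 times as high as in none, with an interval that held 1 (0.970 to 14.3). All 3 comparisons reuse the same libraries and add no independent evidence to each other.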

How the data were processed

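The authors deposited, for each of the 3 libraries, UMI counts per gene and barcode as whole numbers with no normalization. Cell Ranger made them, version 7.1.0 per the submitters' processing notes and version 6.1.2 per the file headers. The sources used here name no genome build for the alignment. All 55450 gene identifiers matched GENCODE M21 (GRCm38), which gave gene positions. Promoters came from RefSeq (GRCm38.p6).

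Groups were taken from the labels. Raw counts were summed over the members of each library and scaled with TMM factors of edgeR 4.0.16 (0.904 in none, 0.977 in diabetic, 1.13 in diabetic-Exercise). Ratios have exact conditional Poisson intervals and shares exact Clopper-Pearson intervals. Log2 ratios had a prior count of 0.5, and genes needed 20 UMIs over the 2 libraries compared. No count test was run, since each group is 1 library. Non-acinar UMIs are all UMIs but those of 39 acinar markers. Doublets were scored with Scrublet in scanpy 1.11.5 and none were removed. Intervals were tested on simulated Poisson counts, the model they assume. That simulation held no differences between cells, so it checks the calculation and not the spread of these data.

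The members and the 22 gene lists and 16 marker lists were chosen with earlier results of these data known. The results of 1 gene list are not reported here. Named genes were those of the lists with the most UMIs or past 2-fold with an interval clear of 1, the 10 at each end by ratio under the limits given above, and the leading 25 genes of the members. Ribosomal protein, mitochondrial, haemoglobin and acinar genes were left out of the ends. Alternatives were other scalings, UMI minimums, cell filters, member rules, depth thinning and subtraction of acinar RNA. Other tools were Python 3.11.15, numpy 2.4.6, scipy 1.17.1, pandas 2.3.3, matplotlib 3.10.9, R 4.3.3 and DESeq2 1.42.0, used for size factors alone.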

Additional observations from a re-analysis of the deposited data

How the results depend on the processing

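No paired analysis was possible because each group is 1 library. The share ratio of diabetic-Exercise to diabetic was 1.48 without acinar-rich barcodes in the total. Under a minimum of 5 UMIs the genes at least 2-fold higher and lower numbered 1440 and 351 for diabetic over none, 807 and 990 for diabetic-Exercise over diabetic, and 2114 and 562 for diabetic-Exercise over none. After thinning to 1000 UMIs per cell they numbered 51 and 15, 13 and 17, and 55 and 27, with fewer genes measured (129, 262 and 146), and the contractile median was 1.16 for diabetic over none and 1.53 for diabetic-Exercise over none. Without members holding pericyte genes, which leaves 0 cells in none and so no value over none, 52 genes were higher and 33 lower in diabetic-Exercise over diabetic, and the contractile median was -0.061. With a total free of acinar and mitochondrial genes 74 genes were lower in diabetic over none. The next alternatives were chosen after seeing the data. Without members over 50% acinar, 30 genes were lower in diabetic over none and the contractile median was 2.12, or 2.89 for diabetic-Exercise over none. Without the deepest member of each library it was 2.32 and 3.08. The cause of these shifts was not tested. Of genes past 2-fold and lists with a median log2 ratio past 0.5, those that changed sign were heat shock genes in diabetic-Exercise over diabetic (-0.29 without pericyte-gene members, -0.0506 without the deepest), Gm28438 there after thinning (-0.28), Serping1 over none without members over 50% acinar (0.26), Ier2 over none without the deepest members (4.48), immediate early genes in diabetic over none without them (0.14), and pericyte markers in diabetic-Exercise over none at 5 UMIs (-0.022, beside 0.56). Of the remaining values under an alternative (limits of 0.25 for a list median and 1.5 times for a count), 88 for shares, counts and contractile medians and 1320 for single genes and lists stayed within their limits, and 163 for single genes and lists moved further. Those that stayed include values that could not move, since leaving out barcodes by doublet score removed no member. A lower UMI minimum likewise does not alter a single gene's ratio. Depth is the limit: the members of none hold 11747 UMIs.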
